A study of Mus musculus with 3 samples.

Results

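Transcript levels of 8 mouse genes that carry dietary sugar into and through the intestinal epithelium were examined. They were Slc5a1, Slc2a5, Slc2a2 and Slc2a1 for transport, Khk for fructose breakdown, and Pck1, Fbp1 and G6pc for gluconeogenesis. They were taken by gene symbol, and all 8 were found among the 24346 genes in each of the 3 libraries. RNA was sequenced from epithelial cells of 3 regions, the large intestine and the lower and upper parts of the small intestine, with 1 library each. Cells were shaken off opened intestines in 5 mM EDTA for 20 min at 37 °C, and no sorting is described. The labels name no treatment for any of the 3 groups and give neither genotype, sex, age nor number of animals. All 3 source names begin with SPFm, which is not spelled out. The upper library alone carries a strain entry, naming MC38, a colorectal cancer model in mice. Taken at its word, that entry means that strain cannot be told apart from region wherever the upper library is compared. With 1 library per region there is no replicate check, and every difference below describes these libraries.

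Absorptive cells of the small intestine take up glucose and galactose through SGLT1, a sodium-coupled transporter of the luminal membrane encoded by Slc5a1. Fructose enters through GLUT5, encoded by Slc2a5, and sugars leave toward the blood through GLUT2, encoded by Slc2a2. Ketohexokinase, encoded by Khk, traps fructose as fructose 1-phosphate, and part of the carbon can be turned into glucose by enzymes shared with gluconeogenesis in liver and kidney.

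Levels are in FPKM, fragment counts divided by transcript length and library size, so genes can be compared per length. The steps between low values put 1 FPKM over a 2 kb transcript at about 16.8 reads in the large, 21.7 in the lower and 14.7 in the upper library. Ratios of FPKM between libraries are followed by a 95% Clopper-Pearson interval from the reads implied by the coding length. These intervals cover counting error only, not differences between animals or preparations. Higher and lower are used by size alone, with no test, where log2(FPKM + 1) differed by at least 1, a 2-fold size on that scale, which understates the ratio of low genes, and 1 of the libraries reached 1 FPKM. In bulk samples, fewer cells of a type and less RNA per cell cannot be told apart. Epithelial markers were high throughout, with Epcam at 806 FPKM in the large, 879 FPKM in the lower and 666 FPKM in the upper library. Regional markers mostly followed the labels. Hoxb13, a homeobox gene of the distal bowel, was at 236 FPKM in the large library and listed at 0 in the others. Fabp6, the ileal bile acid binding protein, was at 7245 FPKM in the lower library against 0.416 FPKM in the upper. Gata4, a transcription factor of the proximal bowel, was at 0.137 FPKM in the large, 16.1 FPKM in the lower and 58.3 FPKM in the upper library.

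Most of the 8 genes were lowest in the large intestine and highest in the upper small intestine. In the large against the lower library 6 were lower and 2 higher, Slc2a1 and Pck1, where 10.5% of 12376 measured genes were lower and 9.75% higher. In the large against the upper library 6 were lower and 1 higher, Slc2a1, where 11.7% of 12350 genes were lower and 11.2% higher. In the lower against the upper library 7 were lower, where 3.92% of 11941 genes were lower, and none was higher, where 2.92% were. Called in either direction were 20.2%, 22.9% and 6.84% of all genes in the 3 comparisons. These shares of all genes are also the background for the gene list counts below that use the deposited values and the 2-fold size. Counts under other settings have another background. When libraries were scaled to the epithelial markers, 3116 genes were lower in large against upper, against 1441 as deposited. In lower against upper that scaling gave 1174 genes lower, against 468. Median differences of the 8 genes were -2.24, -3.84 and -1.66 log2 units in the same order, against -4.5e-05, 0.00057 and 0.03 over all measured genes. The comparisons share libraries, so their counts are not independent.

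**Figure D1:**
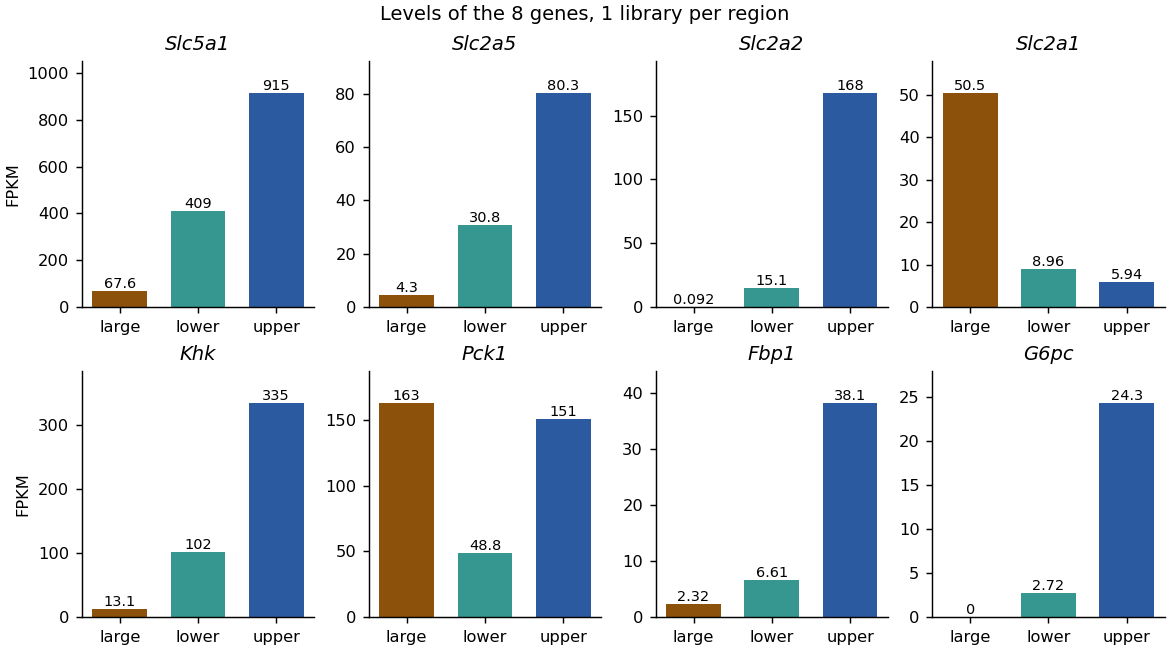
Bars give FPKM of each gene in the large, lower and upper libraries (1 library each, so no error bar), with a separate axis starting at 0 for each gene. Slc5a1, Slc2a5, Slc2a2, Khk, Fbp1 and G6pc are tallest in the upper library, Slc2a1 is tallest in the large library at 50.5 FPKM, and Pck1 is lowest in the lower library at 48.8 FPKM.

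Transcription factors act in part through the sequence just before a gene's start. Windows of 250 bases before to 50 bases after each RefSeq start (GRCm38.p6, the assembly of mm10) were searched on both strands for letters known to be bound by factors of sugar and gut genes. All 8 genes had a window. The E-box CACGTG, as in carbohydrate response elements, was found in Slc5a1 and Khk, and in 7.15% of all 32851 windows. The cyclic AMP response core TGACGT was found in Pck1, and in 7.51% of all. The GC box GGGCGG was found in Slc2a1, Slc2a5, Khk, Fbp1 and Pck1, and in 35.7% of all. The TATA box TATAAA was found in Slc2a1 and G6pc, and in 13.6% of all. None of the 8 held the HNF4 letters CAAAGTCCA, present in 0.475% of all. The same holds for the GATA letters AGATAAG, present in 3.04%. The CDX letters TTTATGG, in 2.75% of all, were likewise in none. Slc2a2 held no match, which says only that these letters are not in its window. No matches overlapped, and a match describes letters, not binding.

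The windows below, 5′ to 3′ along each gene and credited to RefSeq, show genes with contrasting levels: the uptake pair Slc5a1 and Slc2a5, the fructose kinase Khk, the gluconeogenic pair Pck1 and G6pc, of which Pck1 alone was abundant in the large library, and Slc2a1, highest in the large library. Capitals mark the matched letters.
Slc5a1 (chr5:33103969-33104268, plus strand): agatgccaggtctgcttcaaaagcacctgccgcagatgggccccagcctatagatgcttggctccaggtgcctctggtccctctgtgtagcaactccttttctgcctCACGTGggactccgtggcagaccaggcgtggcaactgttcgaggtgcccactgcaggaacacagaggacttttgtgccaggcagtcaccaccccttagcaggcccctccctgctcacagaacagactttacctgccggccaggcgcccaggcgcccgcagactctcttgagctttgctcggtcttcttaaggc
Slc2a5 (chr4:150119094-150119393, plus strand): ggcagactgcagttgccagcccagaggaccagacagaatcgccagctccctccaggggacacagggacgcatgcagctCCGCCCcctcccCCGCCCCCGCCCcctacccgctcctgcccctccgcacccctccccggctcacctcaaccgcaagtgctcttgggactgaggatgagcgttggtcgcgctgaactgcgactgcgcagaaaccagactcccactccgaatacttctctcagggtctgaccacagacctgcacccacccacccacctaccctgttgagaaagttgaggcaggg
Khk (chr5:30921309-30921608, plus strand): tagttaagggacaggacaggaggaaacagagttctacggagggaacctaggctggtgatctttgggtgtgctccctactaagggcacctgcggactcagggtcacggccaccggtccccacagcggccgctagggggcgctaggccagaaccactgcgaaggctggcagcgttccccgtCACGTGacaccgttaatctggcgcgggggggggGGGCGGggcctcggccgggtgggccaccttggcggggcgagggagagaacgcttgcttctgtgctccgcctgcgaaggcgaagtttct
Pck1 (chr2:173152823-173153122, plus strand): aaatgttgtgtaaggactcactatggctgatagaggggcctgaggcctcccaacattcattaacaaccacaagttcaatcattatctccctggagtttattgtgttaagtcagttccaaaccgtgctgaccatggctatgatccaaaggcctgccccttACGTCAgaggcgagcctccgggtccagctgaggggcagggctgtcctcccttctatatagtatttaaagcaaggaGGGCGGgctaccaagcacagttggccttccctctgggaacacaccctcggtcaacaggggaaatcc
G6pc (chr11:101367466-101367765, plus strand): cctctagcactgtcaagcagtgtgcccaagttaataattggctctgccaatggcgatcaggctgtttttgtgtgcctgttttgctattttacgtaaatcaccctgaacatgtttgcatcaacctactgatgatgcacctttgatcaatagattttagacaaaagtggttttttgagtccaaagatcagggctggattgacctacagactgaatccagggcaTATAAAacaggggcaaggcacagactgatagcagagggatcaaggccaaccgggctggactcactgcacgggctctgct
Slc2a1 (chr4:119108495-119108794, plus strand): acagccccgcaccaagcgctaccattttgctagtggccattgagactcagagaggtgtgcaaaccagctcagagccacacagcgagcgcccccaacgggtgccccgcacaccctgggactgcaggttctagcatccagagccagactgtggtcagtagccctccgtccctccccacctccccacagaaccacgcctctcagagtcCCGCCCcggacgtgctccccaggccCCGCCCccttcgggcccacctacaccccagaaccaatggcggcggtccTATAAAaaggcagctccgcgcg

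Slc5a1 and Slc2a5 shared none of the searched letters: Slc5a1 has an E-box at -143 to -138, and Slc2a5 has 3 GC boxes between -172 and -149, counted from the start. Khk has an E-box at -71 to -66 and a GC box at -38 to -33. Pck1 has the cyclic AMP core at -91 to -86 and a GC box at -16 to -11. G6pc has a TATA box at -29 to -24. Slc2a1 alone had more than 1 GC box within 50 bases before the start, at -45 to -40 and -20 to -15, and its TATA letters lie at 29 to 34 after it. The share of bases that are guanine or cytosine was 65.3% in Slc2a1, 65.3% in Slc2a5 and 65.7% in Khk. It was 48.0% in Slc2a2 and 46.7% in G6pc, with a median of 52.7% over all windows.

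**Figure D2:**
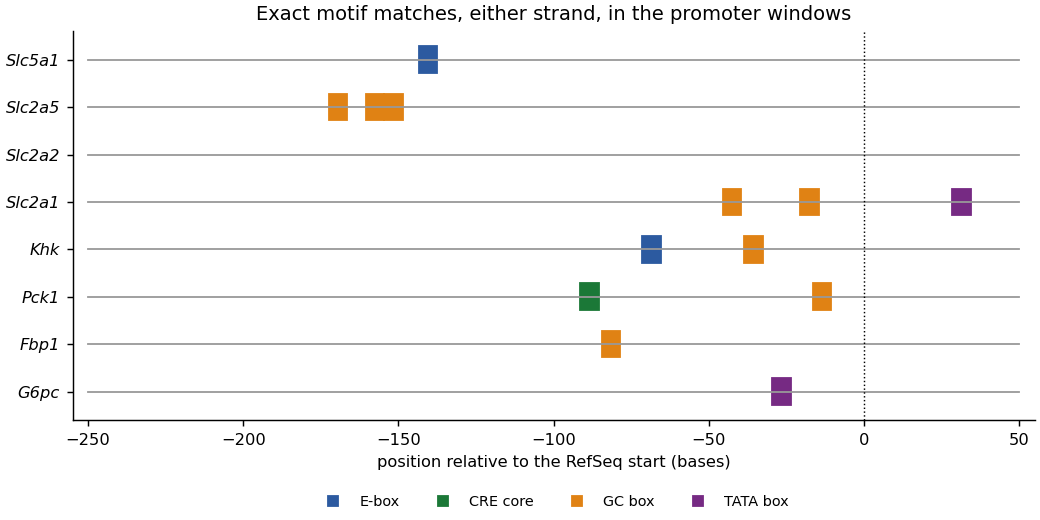
Each line is the window of a gene from 250 bases before to 50 bases after its RefSeq start (dotted), and boxes are exact matches on either strand, coloured by motif. Khk, Pck1 and Slc2a1 each have 2 different motifs, and Slc2a2 has none.

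Slc5a1, encoding the sodium-glucose cotransporter SGLT1, was at 67.6 FPKM in the large library, 409 FPKM in the lower and 915 FPKM in the upper. It was the most abundant of the 8 genes in both small intestinal libraries, standing 237th among all genes in the lower and 103rd in the upper. The large to lower ratio was 0.165 (0.155 to 0.176), the large to upper ratio 0.0739 (0.0695 to 0.0785) and the lower to upper ratio 0.447 (0.435 to 0.459). Slc5a1 was not silent in the large intestine: its level there exceeded 89.3% of the genes at 1 FPKM or more. The gene is protein coding with 15 exons, on the plus strand of chromosome 5 (mm10, 33104219 to 33162870).

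Slc2a5, encoding the fructose transporter GLUT5, was at 4.30 FPKM in the large library, 30.8 FPKM in the lower and 80.3 FPKM in the upper. Its large to lower ratio of 0.140 (0.103 to 0.184) and its large to upper ratio of 0.0536 (0.0397 to 0.0701) were close to those of Slc5a1. The lower to upper ratio was 0.383 (0.342 to 0.428). The level of Slc2a5 relative to Slc5a1 in the same library was 0.0636 (0.0472 to 0.0831) in the large, 0.0752 (0.0685 to 0.0822) in the lower and 0.0877 (0.0819 to 0.0939) in the upper library. The glucose and fructose entry genes therefore stayed in a similar proportion in all 3 libraries, over a span of more than 10-fold in level. Slc2a5 lies on chromosome 4 at 150119283 to 150144169 (plus strand).

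Slc2a2, encoding GLUT2, had the largest differences of the 8 genes on the log2(FPKM + 1) scale, at -3.88 for large against lower, -7.27 for large against upper and -3.39 for lower against upper. With a pseudocount of 5 its large against lower difference was -1.98, smaller than that of Khk at -2.57 and Slc5a1 at -2.51, and with 0.1 it was -6.31. It was at 0.092 FPKM in the large library, 15.1 FPKM in the lower and 168 FPKM in the upper. The large value stands for about 1 read by coding length, so it is at the edge of detection. Its ratio was 0.0061 (0.00013 to 0.028) to the lower and 0.00055 (1.1e-05 to 0.0025) to the upper library, and the lower to upper ratio was 0.0902 (0.0790 to 0.103). Per Slc5a1 transcript, Slc2a2 was at 0.00136 (2.8e-05 to 0.00626) in the large, 0.0369 (0.0325 to 0.0418) in the lower and 0.183 (0.174 to 0.192) in the upper library. The exit transporter thus did not keep a fixed proportion to the entry transporter. Slc2a2 lies on chromosome 3 at 28697903 to 28731359 (plus strand).

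Because Slc2a2 is also a gene of pancreatic islets and liver cells, markers of those cells were read beside it. Of 8 pancreatic exocrine markers, 7 were listed at 0 in the large library, 7 in the lower and 1 in the upper. Cela1, which also had 227 FPKM in the large library, was above 0 in all 3. In the upper library the others above 0 ran from 4.85 FPKM for Cpa1, a carboxypeptidase, to 15.5 FPKM for Ctrb1, a chymotrypsinogen. The summed level of the 8 was 227 FPKM in the large, 5.71 FPKM in the lower and 66.8 FPKM in the upper library. Of 7 islet markers, read after these values were seen, Ins1, Ins2, Nkx6-1 and Slc30a8 were at 0 in all 3 libraries, and Pdx1, also a duodenal gene, was at 0.303 FPKM in the large, 0 in the lower and 9.19 FPKM in the upper. Iapp, the amylin gene, was at 1.12 FPKM in the large, 2.59 FPKM in the lower and 2.32 FPKM in the upper library, and G6pc2 was at 0.133 FPKM in the large library and 0 in the others. Alb, the albumin gene that defines liver cells, was at 0.654 FPKM in the large, 0 in the lower and 0.205 FPKM in the upper library. Summed liver markers were at 43.8 FPKM in the large, 263 FPKM in the lower and 325 FPKM in the upper library. Cps1, a urea cycle gene that enterocytes also express, made up 7.31, 254 and 319.7 FPKM of these sums in the same order. While Cps1 was lower in the large than in either other library, the liver markers Ttr and Tat were higher in it. The part of pancreatic or liver RNA in the upper values of the 8 genes was not tested.

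Slc2a1, encoding the widely expressed glucose transporter GLUT1, ran the other way. It was at 50.5 FPKM in the large library, 8.96 FPKM in the lower and 5.94 FPKM in the upper. Its large to lower ratio was 5.63 (4.68 to 6.79) and its large to upper ratio 8.49 (6.59 to 11.2). The lower and upper libraries differed by less than the 2-fold size, with a ratio of 1.51 (1.12 to 2.07). Slc2a1 is known as a gene of dividing cells, endothelium and red blood cell precursors, so those markers were read too. Set against the lower library, the large had 8 of 10 proliferation genes lower and none higher, with summed levels of 181 FPKM in the large, 472 FPKM in the lower and 425 FPKM in the upper. Summed erythroid markers were at 21.5 FPKM in the large, 38.5 FPKM in the lower and 25.7 FPKM in the upper library. Summed endothelial markers were at 1.45 FPKM in the large, 1.40 FPKM in the lower and 1.17 FPKM in the upper library, with Cdh5 and Kdr, which define that cell type, at or near 0 in all 3. By the filter of 1 FPKM, 10 of 10 proliferation, 3 of 8 erythroid and 1 of 6 endothelial markers were measured in the large against either other library. The part of these cells in the level of Slc2a1 was not tested. Slc2a1 lies on chromosome 4 at 119108711 to 119137983 (plus strand) with 10 exons.

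Slc2a2 and Slc2a1 differed in opposite directions between the large and each small intestinal library. Between lower and upper only Slc2a2 passed the 2-fold size. The level of Slc2a2 over that of Slc2a1 was 0.00182 (3.8e-05 to 0.0084) in the large, 1.69 (1.37 to 2.08) in the lower and 28.2 (22.1 to 36.9) in the upper library. Among the 12 genes of the facilitative Slc2 family, Slc2a1 made up 63.1% of the summed level in the large library. In the lower library Slc2a5 led with 36.1%, and in the upper library Slc2a2 led with 52.6%. The summed level of the family was nearly equal in the large and lower libraries, at 80.0 FPKM and 85.2 FPKM, and was 319 FPKM in the upper.

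The Slc2 family was divided. Of its 10 genes measured in the large against the lower library, Slc2a1, Slc2a2 and Slc2a5 included, 3 were higher, 5 lower and 2 within the 2-fold size. Against the upper library 3 were higher, 4 lower and 3 within it. In the lower against the upper library 1 of 9 was higher and 3 lower, of which Slc2a7 was the only gene beside Slc2a2 and Slc2a5. Slc2a13, the gene called higher, was no longer called with a pseudocount of 5, a 5 FPKM filter or a 3-fold size. Slc2a7, the gene beside Slc2a5 and a hexose transporter gene of the same subfamily, was at 0.239 FPKM in the large library, 8.16 FPKM in the lower and 44.8 FPKM in the upper. Slc2a9, a urate transporter gene, was at 3.09 FPKM in the large, 13.03 FPKM in the lower and 14.4 FPKM in the upper library. Slc2a13, which encodes a proton-coupled myo-inositol transporter, was at 10.04 FPKM in the large, 2.12 FPKM in the lower and 0.277 FPKM in the upper library. Like Slc2a1, it was higher in the large intestine.

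In the sodium-coupled Slc5 list, 4 of 6 measured genes were lower in the large library and 1 higher against each small intestinal library. The same 4, Slc5a1, Slc5a4a, Slc5a4b and Slc5a11, were lower in the lower than in the upper library. Slc5a1 held 83.3% of the list's summed FPKM in the large, 86.6% in the lower and 81.6% in the upper library. Slc5a4a, which encodes an SGLT3 protein, was at 0.177 FPKM in the large, 15.9 FPKM in the lower and 62.4 FPKM in the upper library. Its relative Slc5a4b was at 0.623 FPKM in the large, 15.9 FPKM in the lower and 54.5 FPKM in the upper library. Slc5a11, a sodium-coupled inositol transporter gene, was at 0.051 FPKM in the large, 21.7 FPKM in the lower and 76.8 FPKM in the upper library. Slc5a3, the other inositol transporter gene of the list, was at 6.40 FPKM in the large, 1.63 FPKM in the lower and 1.23 FPKM in the upper library, the opposite direction. Slc5a2, the SGLT2 gene of the kidney, was listed at 0 in all 3.

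**Figure D3:**
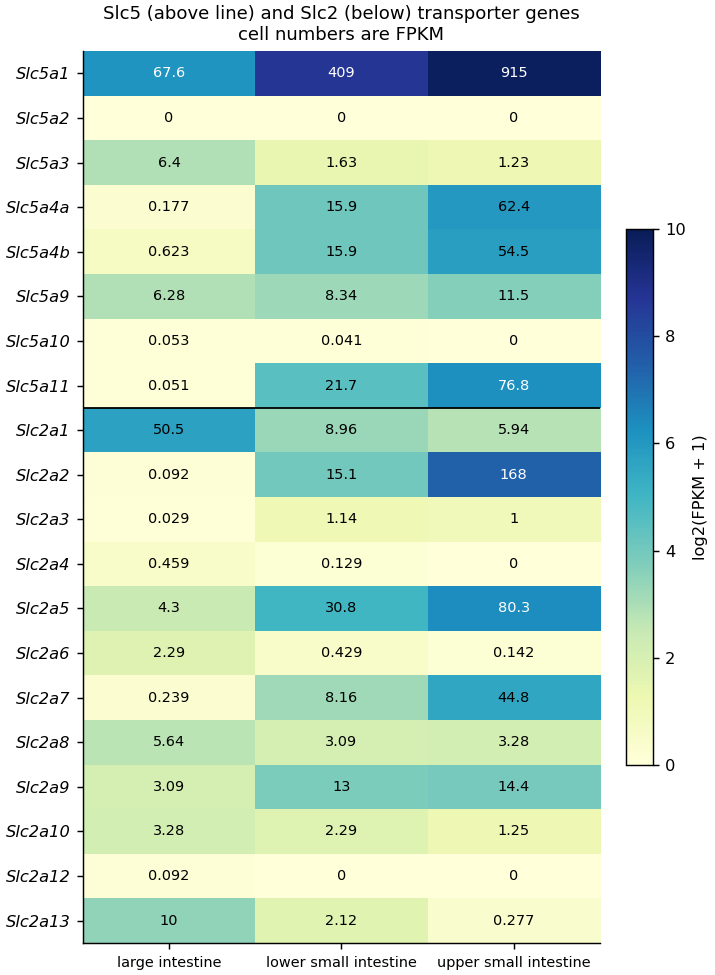
Rows are the 8 Slc5 and 12 Slc2 genes, columns the large, lower and upper libraries, and each cell prints FPKM and is shaded by log2(FPKM + 1). Slc5a1 is the darkest row, and the darkest Slc2 cell is Slc2a1 in the large and Slc2a2 in the upper library.

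SGLT1 draws on a sodium gradient across the membrane. Of the 8 genes that drive or place SGLT1, the large library had 2 higher and 1 lower against the lower library, and 1 higher and 1 lower against the upper. Between lower and upper, 1 was lower and none higher. When libraries were scaled to the epithelial markers, 3 were lower in the large against the upper library and 5 in the lower against the upper. Their medians as deposited were 0.33, -0.09 and -0.58 log2 units in the 3 comparisons. Slc9a3, the sodium-hydrogen exchanger NHE3, was at 58.7 FPKM in the large, 8.32 FPKM in the lower and 34.1 FPKM in the upper library. Pdzk1ip1, which encodes MAP17, a small membrane protein that raises SGLT activity, was at 129 FPKM in the large, 6.79 FPKM in the lower and 3.84 FPKM in the upper library. Its scaffold partner Pdzk1 was at 3.63 FPKM in the large, 87.7 FPKM in the lower and 128 FPKM in the upper library. The MAP17 gene and the scaffold gene thus ran in opposite directions.

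Khk, encoding ketohexokinase, was at 13.1 FPKM in the large library, 102 FPKM in the lower and 335 FPKM in the upper. The ratio of large to lower was 0.128 (0.105 to 0.155), that of large to upper 0.0391 (0.0321 to 0.0472), and that of lower to upper 0.305 (0.284 to 0.327). Among genes at 1 FPKM or more, Khk stood above 53.2% in the large library, against 97.4% in the upper. Gene-level values do not separate the A and C splice forms of ketohexokinase. Khk lies on chromosome 5 at 30921431 to 30931248 (plus strand) with 9 exons.

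Of the genes for later steps of fructose use, some ran in the direction of Khk. Tkfc, encoding the triokinase that phosphorylates glyceraldehyde, was at 9.10 FPKM in the large, 92.8 FPKM in the lower and 209 FPKM in the upper library. Gpd1, a glycerol 3-phosphate dehydrogenase gene, was at 14.3 FPKM in the large, 126 FPKM in the lower and 283 FPKM in the upper library. The level of Khk over that of Slc2a5 was 3.04 (2.19 to 4.31) in the large, 3.32 (2.99 to 3.70) in the lower and 4.17 (3.86 to 4.50) in the upper library. The uptake and trapping genes for fructose thus differed by similar factors between the large and lower libraries. Khk over Slc2a5 was somewhat greater in the upper than in the lower library, with intervals that did not overlap.

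Of the 9 fructose genes, 5 were lower in the large library and 2 higher in both comparisons. The medians were -1.05 against the lower and -2.27 against the upper library. The lower library had 5 of 8 lower and none higher against the upper, with a median of -1.16, and 1 lower with a 3-fold size. Khk, Tkfc, Glyctk and Gpd1 were among the 5 in each comparison. Aldh2, a mitochondrial aldehyde dehydrogenase gene, was higher in the large library at 318 FPKM, with 55.7 FPKM in the lower and 76.2 FPKM in the upper. Sord, encoding sorbitol dehydrogenase, which makes fructose from sorbitol, stayed within the 2-fold size at 95.4 FPKM in the large, 104 FPKM in the lower and 148 FPKM in the upper library. Akr1b3, the aldose reductase gene and the other member called higher, was at 2.94 FPKM in the large library and 0.001 FPKM in both others. Of its 50-base transcript windows 9.48% occur in other genes, so its values are uncertain.

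Gluconeogenesis genes differed in direction between the large and lower libraries, while Pck1, Fbp1 and G6pc were all lower in the lower than in the upper. Pck1, encoding cytosolic phosphoenolpyruvate carboxykinase, the entry enzyme, was at 163 FPKM in the large library, 48.8 FPKM in the lower and 151 FPKM in the upper. It was the most abundant of the 8 genes in the large library. The lower library stood apart from both, with a large to lower ratio of 3.34 (3.10 to 3.60) and a lower to upper ratio of 0.323 (0.299 to 0.349). The large to upper ratio was 1.08 (1.02 to 1.14), within the 2-fold size. The log2 difference of 0.11 became -0.52 when libraries were scaled to 6 epithelial markers, so the order of large and upper was not fixed. Pck1 lies on chromosome 2 at 173153048 to 173159273 (plus strand) with 10 exons.

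Fbp1, encoding fructose 1,6-bisphosphatase 1, the step opposite phosphofructokinase, was at 2.32 FPKM in the large library, 6.61 FPKM in the lower and 38.1 FPKM in the upper. For large over lower the ratio was 0.350 (0.205 to 0.588), for large over upper 0.0608 (0.0371 to 0.0970), and for lower over upper 0.174 (0.133 to 0.226). The large against lower call, at -1.20, was the least firm of the 8. It became -0.67 with a pseudocount of 5, -0.97 when libraries had the same FPKM sum and -0.99 when that sum left out short RNA genes, and it was lost with a 3-fold size. Fbp1 lies on chromosome 13 at 62864753 to 62888282 (minus strand).

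G6pc, encoding the catalytic subunit of glucose 6-phosphatase that frees glucose, was listed at 0 in the large library, against 2.72 FPKM in the lower and 24.3 FPKM in the upper. No fold is given for the large library, since an exact 0 can be a failed estimate. The lower to upper ratio was 0.112 (0.0751 to 0.165). The large against lower difference of -1.90 fell short of the 2-fold size, at -0.63, with a pseudocount of 5, and the gene was not measured with a filter of 5 FPKM. G6pc lies on chromosome 11 at 101367561 to 101377903 (plus strand) with 5 exons.

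The 3 gluconeogenic genes thus differed most in the large intestine. Pck1 there was at 70.4 (44.9 to 114) times the level of Fbp1, against 7.38 (5.81 to 9.48) times in the lower and 3.97 (3.50 to 4.51) times in the upper library. Its level over that of G6pc was 17.9 (12.5 to 26.1) in the lower and 6.21 (5.35 to 7.24) in the upper library. Pfkl, the liver-type phosphofructokinase gene that works against Fbp1, was at 64.7 FPKM in the large, 10.8 FPKM in the lower and 15.4 FPKM in the upper library. The level of Pfkl over that of Fbp1 was 27.9 (17.8 to 45.3) in the large, 1.63 (1.26 to 2.14) in the lower and 0.403 (0.341 to 0.480) in the upper library. Fbp1 exceeded Pfkl in the upper library only. Its paralog Fbp2 exceeded Pfkl in every library, at 109 FPKM in the large, 149 FPKM in the lower and 260 FPKM in the upper. Other phosphofructokinase genes are not part of this ratio either.

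All 18 measured genes of the gluconeogenesis list had a median of -0.17 in the large against the lower library, with 3 higher and 3 lower. That count of 3 lower was 0 with a pseudocount of 5, 1 with equal FPKM sums or a 3-fold size and 5 with epithelial scaling. Against the upper library 2 were higher and 8 lower, 4 of them past a 3-fold size, with a median of -0.84. The lower library had 6 lower and none higher against the upper, with a median of -0.77, and 13 lower with epithelial scaling. Fbp2, the paralog beside Fbp1 and known as the muscle isoform, was more abundant than Fbp1 in every library. It was at 109 FPKM in the large, 149 FPKM in the lower and 260.1 FPKM in the upper library. The transcripts of Fbp1 and Fbp2 share no 50-base window, so reads of that length could be told apart. Slc37a4, the transporter that brings glucose 6-phosphate to G6pc, was at 17.7 FPKM in the large, 21.2 FPKM in the lower and 52.9 FPKM in the upper library. G6pc3, the ubiquitous phosphatase subunit, was at 31.5 FPKM in the large, 21.2 FPKM in the lower and 21.6 FPKM in the upper library. Pcx, encoding pyruvate carboxylase, was at 26.6 FPKM in the large, 7.71 FPKM in the lower and 14.4 FPKM in the upper library. Like Pck1, it was lowest in the lower library and within the 2-fold size in large against upper. Slc37a2, a glucose 6-phosphate and phosphate exchanger gene, was at 120.4 FPKM in the large, 0.081 FPKM in the lower and 7.24 FPKM in the upper library, also lowest in the lower.

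**Figure D4:**
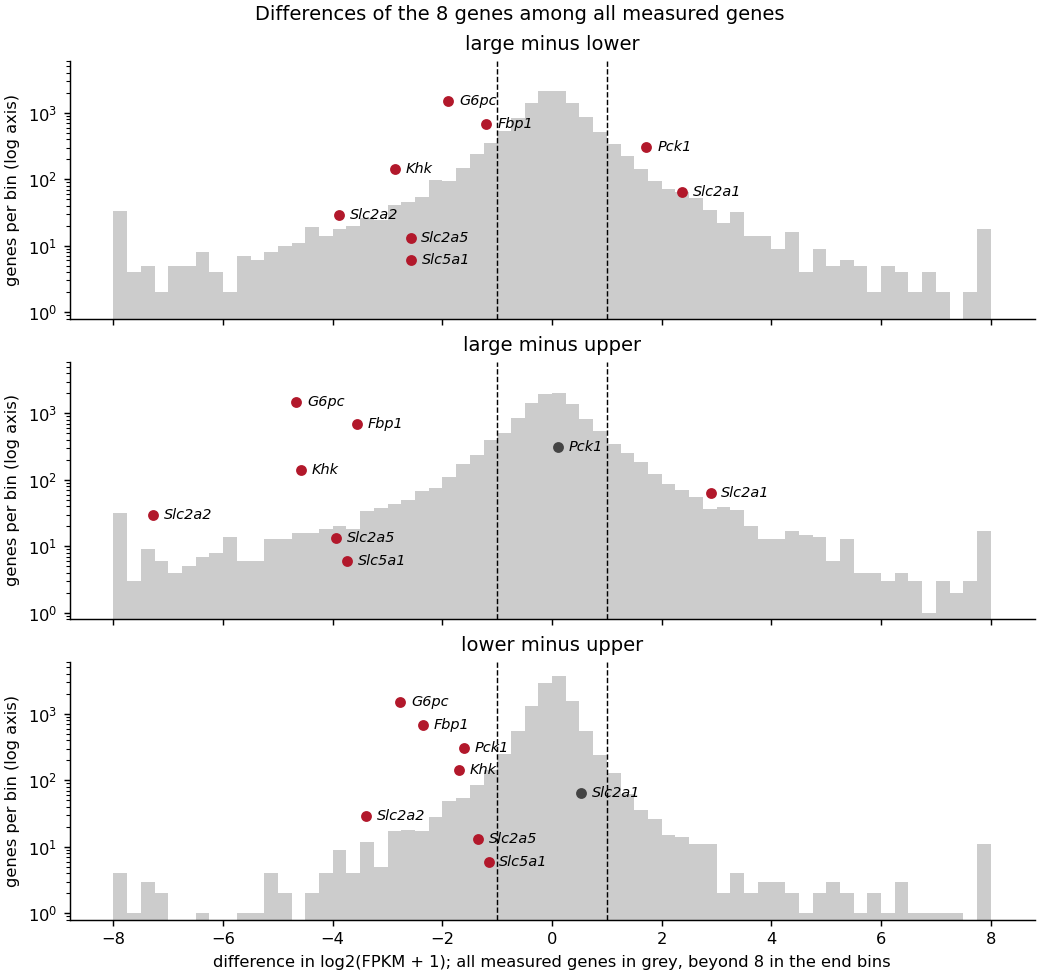
Grey bars count all measured genes by difference in log2(FPKM + 1) on a log axis, in panels for large minus lower, large minus upper and lower minus upper, with dashed lines at -1 and 1. Points mark the 8 genes, red past the 2-fold size, and their height carries no value. Slc2a2 lies farthest left in all 3 panels and Slc2a1 farthest right.

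Regulators known to act on these genes gave counts that depended on scaling, as did counts over all genes. Of all genes, 9.75% were higher and 10.5% lower in large against lower, and 11.2% and 11.7% in large against upper. In lower against upper these were 2.92% and 3.92%. The large against lower comparison had 2 of 25 higher and 4 lower, with a median of -0.15. Large against upper had 3 higher and 5 lower, and lower against upper had 1 higher and 3 lower, with medians of -0.09 and -0.15. Equal FPKM sums gave 7 higher in large against lower and 6 in large against upper. Epithelial scaling gave 8 lower in large against upper and 8 in lower against upper. Over all genes in large against upper, equal FPKM sums gave 2214 higher, against 1387 as deposited. Epithelial scaling gave 3116 lower there, against 1441, so this dependence was not particular to regulators. Mlxipl, encoding ChREBP, the carbohydrate response factor that binds E-box pairs, was at 11.8 FPKM in the large, 48.6 FPKM in the lower and 109 FPKM in the upper library. Hnf4g, a nuclear receptor gene, was at 16.9 FPKM in the large, 78.1 FPKM in the lower and 152 FPKM in the upper library. Its relative Hnf4a stayed within the 2-fold size at 180.0 FPKM in the large, 231 FPKM in the lower and 192 FPKM in the upper library. Creb3l3, a membrane-bound transcription factor gene of liver and gut, was at 1.31 FPKM in the large, 55.2 FPKM in the lower and 155 FPKM in the upper library. Foxa2 was higher in the large library, at 13.5 FPKM against 1.85 FPKM in the lower and 2.16 FPKM in the upper. Txnip, a glucose-induced gene, was within the 2-fold size at 470 FPKM in the large, 253 FPKM in the lower and 299 FPKM in the upper library.

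Glycolysis genes were divided between isoforms. The large library had 7 of 27 higher and 4 lower against the lower library, and 6 of 27 higher and 6 lower against the upper. Between lower and upper, 1 of 26 was higher and 4 were lower. With epithelial scaling 12 were lower in the large against the upper and 12 in the lower against the upper library. Median differences as deposited were 0.21, -0.31 and -0.45. Hk1, a hexokinase gene, was at 59.5 FPKM in the large, 4.46 FPKM in the lower and 2.07 FPKM in the upper library, in the same direction as Slc2a1. Hkdc1, a hexokinase-like gene, was at 18.8 FPKM in the large, 95.6 FPKM in the lower and 147 FPKM in the upper library. Pklr, the liver-type pyruvate kinase gene, was at 33.1 FPKM in the large, 106 FPKM in the lower and 144 FPKM in the upper library. Aldoa, the aldolase gene of ordinary glycolysis, was at 660 FPKM in the large, 296 FPKM in the lower and 248 FPKM in the upper library, opposite to Khk. Eno3, an enolase gene, was at 117 FPKM in the large, 8.05 FPKM in the lower and 5.62 FPKM in the upper library.

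Among 12 measured galactose and glycogen genes, the large library had 5 higher and none lower against the lower library, with a median of 0.53. Against the upper library 2 were higher and 2 lower, and between lower and upper 1 was lower, with medians of 0.67 and -0.33. Galm and Galk1, which start galactose use, were the 2 lower against the upper library. Galm was at 32.9 FPKM in the large, 43.98 FPKM in the lower and 94.4 FPKM in the upper library. Scaling mattered here too, with 7 higher in the large against the upper library under equal FPKM sums, and 5 lower in the lower against the upper under epithelial scaling. Pygb, a glycogen phosphorylase gene, was higher in the large library at 51.8 FPKM, with 16.6 FPKM in the lower and 11.96 FPKM in the upper.

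The 4 disaccharidase genes, which make the sugars that SGLT1 and GLUT5 carry, were all lower in the large than in either other library, and 2 of them, Lct and Treh, were lower in the lower than in the upper, as were all 4 with epithelial scaling. Sis, sucrase-isomaltase, was at 5.93 FPKM in the large, 491 FPKM in the lower and 936 FPKM in the upper library. Lct, lactase, was at 0.201 FPKM in the large, 33.4 FPKM in the lower and 356 FPKM in the upper library. The 11 small intestinal absorptive markers were likewise all lower in the large library, with medians of -6.15 against the lower and -7.37 against the upper library. Those medians lie beyond the differences of Slc5a1, Slc2a5 and Khk, which ranged from -2.58 to -2.87 and from -3.74 to -4.58. Fbp1, at -1.20 and -3.56, and G6pc, at -1.90 and -4.66, also fell short of them. Slc2a2, at -3.88 and -7.27, came close to the median against the upper library. The markers varied too, with Apob at -3.41 and -3.73. Between lower and upper, 6 of the 11 were lower and none higher, with a median of -1.24. Vil1, the microvillus gene villin, was lower in the large library at 278 FPKM, with 913 FPKM in the lower and 974 FPKM in the upper. Over Vil1 in the same library, Slc5a1 was at 0.244 (0.228 to 0.260) in the large, 0.448 (0.437 to 0.459) in the lower and 0.939 (0.918 to 0.961) in the upper. Leukocyte markers also differed: the large library had 9 of 9 measured lower against the lower library and 6 of 6 lower against the upper. Their summed level was 8.39 FPKM in the large, 99.8 FPKM in the lower and 93.1 FPKM in the upper library. Ptprc, which defines leukocytes, was at 1.73, 15.3 and 12.8 FPKM in the large, lower and upper libraries. The part of these cells in the differences of the 8 genes was not tested.

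**Figure D5:**
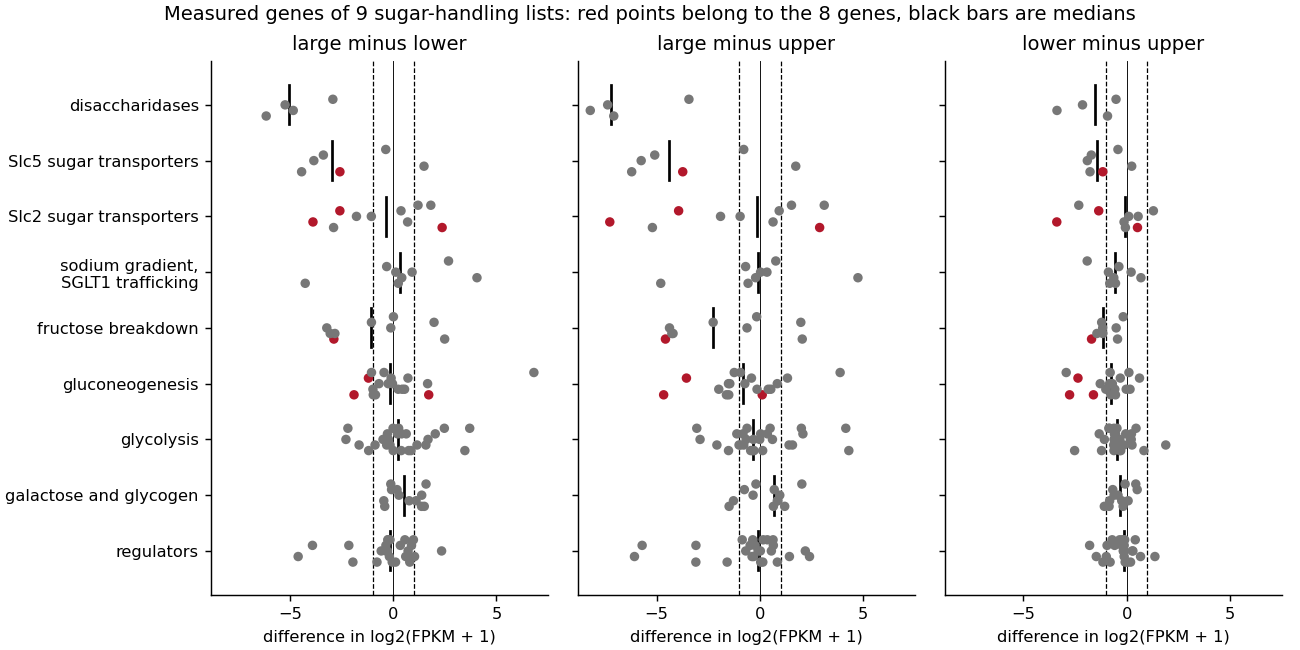
Each point is a measured gene of 1 of 9 lists, placed by its difference in log2(FPKM + 1) in the 3 comparisons, with black bars at list medians and dashed lines at -1 and 1. Red points are the 8 genes. Disaccharidase and Slc5 points lie mostly left of -1 in the first 2 panels, with medians of -5.04 and -2.98 in the first, while glycolysis and regulator medians lie near 0.

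Among measured chromosome neighbours of the 8 genes, only Slc2a7 had the calls of its gene in every comparison. Several others shared some of them. Gpr157, next to Slc2a5, was called lower in both comparisons with the upper library. Tnik, next to Slc2a2, and Fbp2, next to Fbp1, were called lower for large against upper only. Zfp691, next to Slc2a1, was called higher there, as Slc2a1 was. 2010111I01Rik, on the other side of Fbp1, stayed within the 2-fold size. Slc2a5 and Slc2a7, 4.80 kb apart on the same strand, were both lower in the large library and lower in the lower than in the upper. Cgref1, 1.90 kb beyond Khk on the other strand, was at 58.03 FPKM in the large, 96.9 FPKM in the lower and 253 FPKM in the upper library, and was called against the upper library in both comparisons. Emilin1, on the other side of Khk at a distance of 0.154 kb, stayed within the 2-fold size at 0.703 FPKM in the large, 1.16 FPKM in the lower and 1.16 FPKM in the upper library. Ywhah, next to Slc5a1, was at 130 FPKM in the large, 163 FPKM in the lower and 134 FPKM in the upper library. Zbp1, next to Pck1, was at 13.2 FPKM in the large, 70.9 FPKM in the lower and 41.5 FPKM in the upper library, highest where Pck1 was lowest.

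Genes with the nearest pattern over the 3 libraries were sought among 7332 genes at 10 FPKM or more, by Euclidean distance between log2(FPKM + 1) levels centred on their mean. With 3 libraries many genes can lie close, and the distances are a description. Nearest to Slc5a1 was Pxdc1 at a distance of 0.06, and Slc2a5 itself lay at 0.16. The pseudocount shrinks differences of low genes, so distances to them depend on it. Pxdc1 was at 0.786 FPKM in the large, 9.44 FPKM in the lower and 21.6 FPKM in the upper library. Nearest to Slc2a5 was Akr1b7 at 0.07, to Khk Cdr2 at 0.06, to Fbp1 Plekhf1 at 0.05 and to Slc2a1 A4gnt at 0.07. Pck1 had Akr1c13 at 0.07, with 152 FPKM in the large, 48.6 FPKM in the lower and 145 FPKM in the upper library. Slc2a2 had few close genes, with the retinol-binding protein gene Rbp2 at 0.24 as the only gene within 0.25, and G6pc had the hormone gene Cck at 0.18. Among the 8 genes, Slc2a1 lay farthest from Slc2a2, at 7.25.

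Near-identical copies were not found for the 8 genes: none of their 50-base transcript windows occurs in another gene of the GENCODE annotation. Antisense genes overlap Slc2a1 and Slc2a2, and an antisense pseudogene overlaps Slc5a1. On the same strand, a processed pseudogene overlaps Slc5a1, and a microRNA gene listed at 0 in all 3 libraries overlaps Slc2a1. The strand setting is unknown, and without it reads of antisense pairs cannot be told apart. Strand would not separate the same-strand pairs.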

How the data were processed

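RNA of intestinal epithelial cells was sequenced from poly(A) libraries made with a stranded kit, per the labels' protocols. The deposited values are taken as FPKM computed by the authors. Headers give no unit, so it was inferred from Cufflinks 2.2.1, which is listed per the submitters' processing notes beside TopHat2 2.0.13, Bowtie2 2.2.3, SAMtools 0.1.19 and mm10. The gene annotation, any filter and the strand setting were not given in the sources used here. Of 24346 gene names, 23310 matched GENCODE M21 (GRCm38), which gave coordinates and coding lengths.

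From the deposited FPKM, differences of log2(FPKM + 1) were computed with Python 3.11.15, pandas 2.3.3 and scipy 1.17.1, after tests on simulated data. A pseudocount of 1 understates differences of low genes. With 1 library per region no p-value or SD was computed. Reads per FPKM were fitted to low values of genes with 1 transcript of at least 1500 nt. By that fit, 76.4% of 348 genes in the large, 77.6% of 361 in the lower and 76.3% of 359 in the upper library came within 0.15 of whole reads, too few for a count test. Implied totals were 8.40e+06 reads in the large, 1.09e+07 in the lower and 7.33e+06 in the upper library, uncertain if libraries were rescaled. Coding length is shorter than the transcript, so it gives too few reads and wide intervals.

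The 8 genes and all lists were chosen with earlier results of these data known. Any measured gene of the transporter, fructose, gluconeogenesis and disaccharidase lists could be named. From the other pathway lists the rule took up to 6 genes of largest difference per comparison and 4 of highest mean. Genes nearest in pattern and chromosome neighbours were also named. Alternatives were 2 pseudocounts, 2 filters, 3 scalings and a 3-fold size. Some genes and motifs are not reported here.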

Additional observations from a re-analysis of the deposited data

How the results depend on the processing

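Under 8 alternatives, the counts of the 8 genes called higher or lower in the 3 comparisons stayed within 1.5 times of those reported. Of 192 gene calls under an alternative, 8 changed. Dropping the filter could change none, since all 8 genes were measured in every comparison. They were Fbp1 under 4 settings and G6pc under 2 in the large against lower comparison, and Slc5a1 and Slc2a5 with a 3-fold size in the lower against upper comparison. No called difference of the 8 genes changed sign, but a pseudocount, filter or fold size cannot change a sign. The largest shift of an all-gene median by a scaling, -0.57, was smaller in size than the 1 unit of a call. Unchanged signs were therefore no test of these differences. Of 120 differences of these genes under another pseudocount or scaling, 47 moved. G6pc, at 0 in the large library, has no counting interval there, so any change counted as moved. These were 5 of the 47 in large against lower and 5 in large against upper. The others moved beyond counting error. Filters and the 3-fold size leave differences as they are. Slc2a2 ranged from -9.77 with a pseudocount of 0.1 to -5.08 with one of 5 in the large against upper comparison. Of 432 counts over pathway lists, 58 moved by more than 1.5 times, among them counts lower in the lower against upper comparison when libraries were scaled to the epithelial markers. They became 13 for 6 gluconeogenesis, 12 for 4 glycolysis and 8 for 3 regulator genes. That scaling moved all-gene medians by -0.10, -0.57 and -0.47 in the large against lower, large against upper and lower against upper comparisons. Equal FPKM sums moved them by 0.27, 0.36 and 0.09, and without short RNA genes by 0.25, 0.27 and 0.02. Genes higher were 48.2%, 49.0% and 42.7% of those called as deposited. Epithelial scaling made these 42.2%, 21.4% and 14.6%, and equal sums 63.9%, 69.0% and 48.4%. Without short RNA genes the first 2 were 62.3% and 64.0%. Genes lower in the lower against upper comparison then numbered 1174 with epithelial scaling, against 468 as deposited, and the cause was not tested. No paired analysis was possible because each region has 1 library. Depth limits Slc2a2 and G6pc in the large library, at about 1 read and at 0.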
